A study of Mus musculus with 10 samples.

Results

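The comparison is between the cochleae of unexposed mice of the strains B6.CAST and 129X1/SvJ. It rests on the control arrays, 5 of the 10 arrays of the series, with 2 of B6.CAST and 3 of 129X1/SvJ. All probe sets other than the Affymetrix control probe sets were considered. B6.CAST mice have the C57BL/6J background and carry a segment of CAST origin around Cdh23, and 129X1/SvJ is an inbred strain. The third 129X1/SvJ array is labelled 129XI/SvJ and was kept in that strain. Every mouse was a female of 10 weeks, and each array received biotin-labelled cRNA made from the cochleae of a pool of 8 mice. The control mice of both strains were put into the noise chamber for a sham exposure, so handling and confinement are shared by both groups. The other 5 arrays, used here as a second measurement of the strain difference, came from mice that had 1 h of octave-band noise (10 kHz, 105 dB SPL) and were killed 6 h later (2 arrays of B6.CAST, 3 of 129X1/SvJ). The series as a whole asked about noise-induced expression in mice that differ in how easily noise damages their cochleae, and the control arrays give the state from which each strain starts.

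The cochlea is the hearing organ of the inner ear. Hair cells turn sound into electrical signals, spiral ganglion neurons carry them to the brain, and the stria vascularis secretes potassium into the endolymph that bathes the hair cells. The stria consists of marginal cells, which do the final secretion, pigmented intermediate cells, which are related to melanocytes, and basal cells, and it is threaded with capillaries wrapped by pericytes. The dissected labyrinth also holds macrophages, glia, fibrocytes, bone and blood. A strain difference in RNA from such a mixture can reflect more or fewer cells of a type or more or less RNA per cell, and bulk arrays cannot tell these apart. The values are signals of probe sets. Whether sequence differences between the strains at the probes alter these signals was not tested.

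The control arrays were similar in overall pattern. Correlations of log2 signals were 0.962 to 0.969 among the 129X1/SvJ arrays, 0.964 between both B6.CAST arrays and 0.930 to 0.958 between strains. The second control array of 129X1/SvJ stood apart in RNA quality, with a ratio of the 3′ to the 5′ Gapdh control probe set of 29.2. The same ratio was 6.94 on 1 array of noise-exposed B6.CAST mice (number 1) and 0.790 to 1.40 on the other 8 arrays. Markers of brain tissue and choroid plexus summed to a signal of 7839 on that 129X1/SvJ array, of which 6252 came from Ttr, against 1143 to 1490 on the other control arrays. Markers of the cochlea itself were well represented: Coch, of spiral ligament fibrocytes, had signals of 12604 to 20801 and Gjb2, the connexin of the supporting cell network, 13048 to 24581 on the control arrays (both named after their values were seen). Of the listed hair cell markers, 5 of 24 were tested, among them Ocm, the calcium buffer of outer hair cells, with signals of 2214 to 3725.

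In control mice, 80 of 8695 tested probe sets (0.920%) differed between strains at an adjusted p under 0.05 in limma. Of these, 50 (0.575%) were higher and 30 (0.345%) were lower in B6.CAST. Without correction 966 probe sets (11.1%) had a p under 0.05. On 2597 probe sets (29.9%) the arrays of both strains did not overlap, so non-overlap alone was common. The difference was above 0 on 3791 probe sets (43.6%), and the median over all probe sets was -0.05 on the log2 scale. Of the called probe sets, 71 stood for 1 gene each, 4 for several genes and 5 had no gene in the annotation used. All values below are B6.CAST minus 129X1/SvJ on the log2 scale with the standard error of the fit (n = 2 and 3 arrays). Signals are the deposited intensities, and dim signals make log2 differences too small because 16 was added before taking logs.

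**Figure D1:**
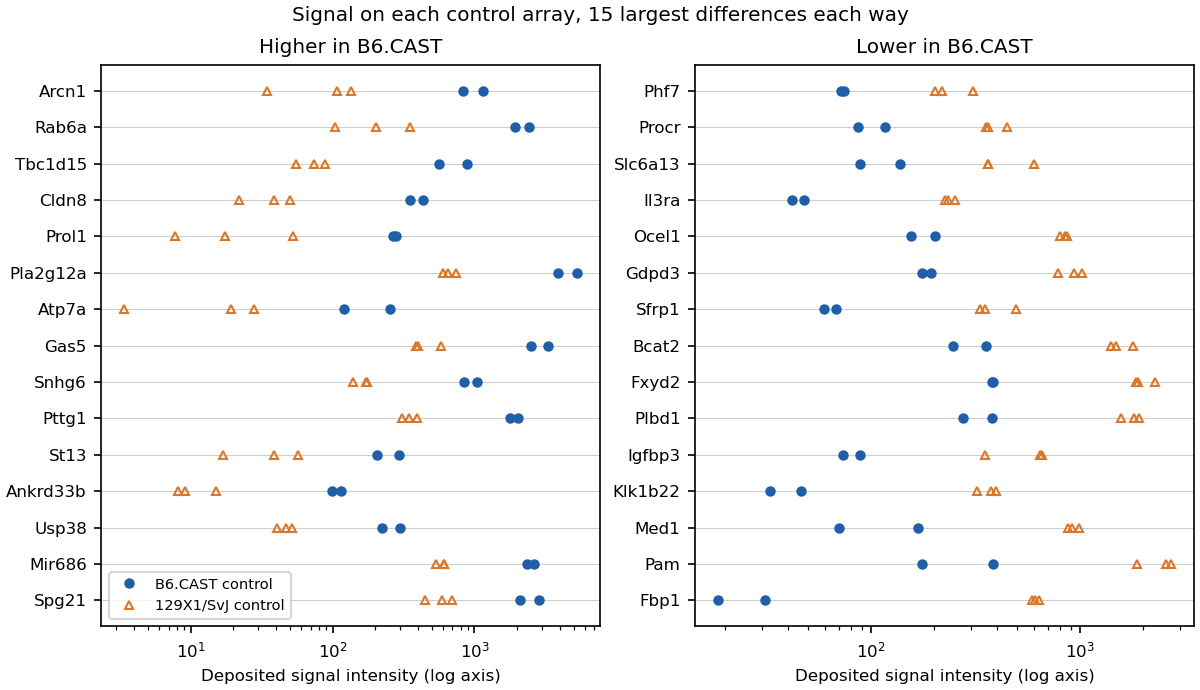
Deposited signal intensity (log axis) on each control array for the 15 largest called differences in each direction; filled circles are the 2 B6.CAST arrays and open triangles the 3 129X1/SvJ arrays. In every gene shown the circles and triangles do not overlap, and the strongest difference is that of Fbp1, at 18.4 and 31.0 in B6.CAST and 587 to 637 in 129X1/SvJ.

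Fbp1, Bcat2 and Pam, 3 genes for enzymes, were lower in B6.CAST. Fbp1, which encodes the fructose bisphosphatase of gluconeogenesis, gave signals of 31.0 and 18.4 in B6.CAST and 637, 587 and 607 in 129X1/SvJ. This difference of -3.88 ± 0.33 (adjusted p = 0.000155 in limma) was the largest among called genes, and the B6.CAST signals lay at the dim end of the array. Of the 25 tested genes of glycolysis and gluconeogenesis, Fbp1 was the 1 that passed, and 18 were lower with a list median of -0.10. Bcat2, the mitochondrial enzyme that starts the breakdown of branched-chain amino acids, gave 247 and 354 against 1401, 1800 and 1484, a difference of -2.31 ± 0.22. Pam, which amidates the ends of peptide hormones, gave 384 and 175 against 2726, 2578 and 1866 (-3.07 ± 0.30). The signal of both genes was several times higher on every 129X1/SvJ array than on either B6.CAST array.

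Enzymes acting on lipids and phospholipids moved in both directions. Gdpd3, a glycerophosphodiesterase, was lower by -2.17 ± 0.19, and Plbd1, a phospholipase B-like protein of lysosomes, by -2.37 ± 0.19. Plbd1 gave 377 and 274 in B6.CAST and 1908, 1801 and 1566 in 129X1/SvJ. Pla2g12a, a secreted phospholipase A2, was in contrast higher, with 3904 and 5319 against 598, 652 and 737 (2.76 ± 0.23). In the mitochondrial respiratory chain, Sdhd, a membrane subunit of succinate dehydrogenase, was the 1 called gene of 69 tested. It gave 3620 and 3535 against 1942, 1913 and 1761 (0.92 ± 0.12, adjusted p = 0.00400). Of the 69 genes, 46 were lower and the list median was -0.05, close to that over all genes. The call of Sdhd was lost without B6.CAST control 1 (adjusted p = 0.0768 in limma), with a difference of 0.89 to 0.95 over all 10 fits that left out 1 array.

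Genes of ion, solute and barrier function differed singly. Fxyd2, the regulatory subunit of the sodium pump, gave 383 and 378 in B6.CAST and 1884, 2273 and 1855 in 129X1/SvJ, a difference of -2.33 ± 0.15 (adjusted p = 6.18e-05). The sodium pump maintains the ion gradients on which endolymph secretion depends, and Fxyd2 was the 1 called member among 17 tested genes of ion and fluid transport, whose median was -0.08. Kcnq1 and Kcne1, the subunits of the potassium channel of marginal cells, were at -0.22 ± 0.25 and 0.14 ± 0.16 and did not pass. Slc6a13, a transporter of GABA and taurine, gave 88.7 and 137 against 364, 602 and 361 (-1.80 ± 0.34). Its highest signal was on the 129X1/SvJ array with the high brain marker signal. Without that array the difference was -1.56 and no longer called (adjusted p = 0.135 in limma), and the call was also lost without each other control array and without 129X1/SvJ noise 2, with p up to 0.329.

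Cldn8, a claudin that seals tight junctions, gave 436 and 351 in B6.CAST and 50.2, 38.7 and 21.9 in 129X1/SvJ (2.92 ± 0.57, adjusted p = 0.0427). It was the 1 called gene of 18 tested genes of gap and tight junctions, of which 11 were lower. Its call was lost without each control array in turn and without noise arrays 2 and 3 of 129X1/SvJ (adjusted p up to 0.311 in limma). Atp7a, a copper-transporting ATPase, gave 256 and 121 against 28.1, 3.40 and 19.4 (2.63 ± 0.46). That call was lost without 129X1/SvJ control 2 or 3 and without either B6.CAST control array (adjusted p up to 0.285 in limma). Arrays of the strains did not overlap for either gene.

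Called genes for secreted regulators and surface receptors lay in both directions. Igfbp3, which binds insulin-like growth factors, gave 88.6 and 73.0 against 656, 643 and 349 (-2.45 ± 0.33). It was the 1 called of 12 tested genes of the IGF system, and Igfbp6 (-0.53 ± 0.17) and Igfbp2 (-0.34 ± 0.14) did not pass. Sfrp1, a secreted inhibitor of Wnt signalling, gave 59.1 and 67.9 against 351, 494 and 332 (-2.30 ± 0.37). It was the 1 called of 26 tested secreted regulators of Wnt, BMP and FGF signalling. Procr, the endothelial receptor of protein C, gave 86.2 and 116 against 362, 446 and 353 (-1.77 ± 0.26), and Il3ra, a chain of the interleukin-3 receptor, gave 47.7 and 41.9 against 225, 233 and 252 (-2.03 ± 0.28). Sfrp1 and Procr, like Slc6a13, were highest on the second 129X1/SvJ control array.

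The calls of these 4 genes did not hold in every fit that left out 1 array. Without the second 129X1/SvJ control array, Sfrp1 had an adjusted p of 0.0771 and Procr of 0.0521 in limma. Without B6.CAST control 1 the calls of all 4 were lost (Igfbp3 0.0681, Il3ra 0.0774, Procr 0.151, Sfrp1 0.202). Without B6.CAST control 2 those of Igfbp3 (0.0549), Il3ra (0.0549) and Sfrp1 (0.0834) were lost. Klk1b22, a kallikrein, was lower by -2.74 ± 0.26, with 32.9 and 46.1 against 396, 322 and 376, and stayed called in each fit. Its probe set has a suffix for probes that may match related sequences, and kallikreins form a large family of close relatives. Cd59a, which blocks the last step of complement attack on cells, was higher, with 4484 and 3533 against 1677, 1587 and 1412 (1.34 ± 0.22). It was the 1 called of 11 tested complement genes, and its call was lost without 129X1/SvJ control 2 or 3 or either B6.CAST control array (adjusted p up to 0.245 in limma). Prol1, a secreted proline-rich protein, gave 281 and 267 against 17.5, 7.80 and 52.9 (2.89 ± 0.44), and its call was lost without either B6.CAST control array (0.133 and 0.127).

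Long RNAs that carry small nucleolar RNAs in their introns stood among the higher genes. Gas5 gave 3285 and 2488 in B6.CAST and 583, 400 and 387 in 129X1/SvJ (2.60 ± 0.25, adjusted p = 0.000287). Snhg6 gave 1036 and 849 against 176, 140 and 171 (2.38 ± 0.22). The other 3 tested RNA genes on that list did not pass, and their values were 0.51 ± 0.30 for Meg3, -0.22 ± 0.23 for Snhg1 and -0.30 ± 0.30 for Snhg5 (Snhg1 and Snhg5 named after their values were seen). A probe set annotated to Mir686 gave 2628 and 2332 against 609, 538 and 609 (2.06 ± 0.16). This value is the signal of a probe set for labelled cRNA and not a level of the mature miRNA.

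Other called genes act in the nucleus or in cell division. Med1, a subunit of the Mediator complex that links transcription factors to RNA polymerase, gave 167 and 70.2 against 992, 915 and 871 (-2.85 ± 0.33). Pttg1, the securin that holds sister chromatids together until anaphase, gave 1790 and 2028 against 346, 308 and 393 (2.38 ± 0.18). Pttg1 was the 1 called of 27 tested cell cycle genes, whose median was -0.07, so the difference was not shared by the list. Usp38, a ubiquitin protease, was higher at 2.08 ± 0.31 and Phf7, a PHD finger protein, lower at -1.49 ± 0.30. Usp38 lost its call without either B6.CAST control array (adjusted p 0.160 and 0.0669 in limma). Phf7 lost it without any 1 control array, without 129X1/SvJ noise 2 and without either B6.CAST noise array (up to 0.327).

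Some of the largest values came from called genes of membrane traffic, a group for which no list was examined. Tbc1d15, a protein that turns off Rab GTPases by speeding their GTP hydrolysis, gave 892 and 562 in B6.CAST and 88.5, 74.4 and 55.4 in 129X1/SvJ (3.01 ± 0.34). Rab6a, a GTPase of the Golgi apparatus, gave 2414 and 1920 against 352, 104 and 202 (3.29 ± 0.63). Arcn1, a coat protein of vesicles that return to the endoplasmic reticulum, gave 1150 and 824 against 136, 108 and 34.8 (3.30 ± 0.66). The 129X1/SvJ arrays differed among themselves several-fold for Rab6a and Arcn1, and their calls were less stable than that of Tbc1d15, which held in each fit without 1 array. The other probe sets of these genes did not show differences of that size. They were at 0.54 for Tbc1d15, 0.10 for Rab6a and 0.45 for Arcn1, and none was called. Rab6a lost its call without 129X1/SvJ control 2 or 3, noise 2 and each B6.CAST array (adjusted p up to 0.285 in limma). Arcn1 lost it without each control array, 129X1/SvJ noise 2 and each B6.CAST noise array (up to 0.329). Spg21, a protein of the endosomal and lysosomal surface linked to a hereditary spastic paraplegia, was higher by 2.06 ± 0.22, St13, a cochaperone of Hsp70, by 2.32 ± 0.45, and Ankrd33b, an ankyrin repeat protein, by 2.19 ± 0.29. Ocel1, a protein with an occludin and ELL domain, was lower by -2.11 ± 0.21. St13 lost its call without 129X1/SvJ control 2 or 3, noise 2 and either B6.CAST control array (up to 0.329), and Ankrd33b without B6.CAST control 1 (0.0696).

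Across the 39 called genes chosen for description, 17 stayed called in each of the 10 fits that left out 1 array. These were Bcat2, Fbp1, Fxyd2, Gas5, Gdpd3, Klk1b22, Med1, the Mir686 probe set, Ocel1, Pam, Pla2g12a, Plbd1, Prdx2, Pttg1, Snhg6, Spg21 and Tbc1d15. Leaving out the second 129X1/SvJ control array, with its high Gapdh ratio, ended 16 of the 39 calls but changed the differences by factors of 0.867 to 1.13. None of the 39 reversed in a fit that tested it, although Ankrd33b fell below the filter in 3 fits without 1 array and 29 of the 39 were tested with a 50% filter. All 39 were also called when the 5 control arrays were fitted alone. The count over all probe sets was less stable. It fell to 23 without B6.CAST control 1 and to 28 without B6.CAST control 2. Leaving out 129X1/SvJ control 2 gave 33 calls and control 3 gave 39. Leaving out noise 1 of that strain gave 132 and noise 2 gave 53.

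The noise-exposed mice gave a second estimate of the strain difference, whose group means share no array with the control means, although all 10 arrays set the spread used for both. There 126 probe sets (1.45%) were called, with 76 (0.874%) above and 50 (0.575%) below 129X1/SvJ in B6.CAST. Of the 80 probe sets called in control mice, 54 were called there too, which is 67.5% of the control calls and 42.9% of the noise calls, and all 54 had the same direction. The sign was the same for 79 of the 80 (98.8%), against 61.4% of probe sets not called in control mice, and for 73 the noise-exposed arrays did not overlap in that direction, against 25.3% of all probe sets in either direction. The noise difference was a median of 0.899 of the control one, and 53 of the 80 were smaller. With control and noise arrays fitted apart, 151 and 55 probe sets were called, 29 in both with the same direction, and 125 of the 151 (82.8%) kept their sign. Without B6.CAST noise 2 the share of calls with the same sign was 76.1%.

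**Figure D2:**
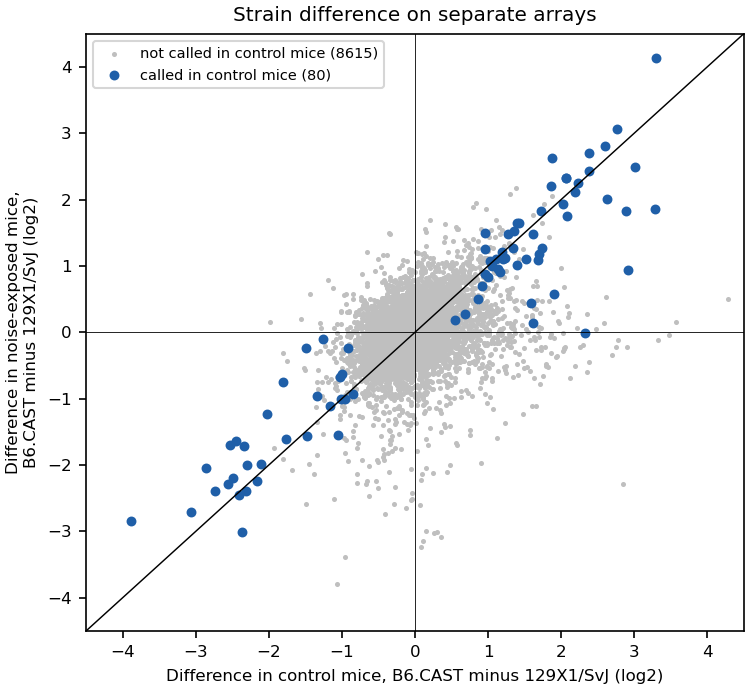
Strain difference (B6.CAST minus 129X1/SvJ, log2) in control mice on the horizontal axis and in noise-exposed mice on the vertical axis for each tested probe set; large points are the 80 probe sets called in control mice, small points the others, and the diagonal marks equal differences. The called points have the same sign on both axes except 1, St13, which sits at -0.01 in noise-exposed mice.

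Of the 80 differences, 31 lay within 0.25 of each other on both sets of arrays. Among the genes called in both, Gas5 was at 2.80 in noise-exposed mice, Snhg6 at 2.70, Pttg1 at 2.44, Pla2g12a at 3.07, Spg21 and the Mir686 probe set at 2.32 each, Bcat2 at -2.39 and Gdpd3 at -2.25. Plbd1 was at -3.01. Others were smaller in noise-exposed mice. Fbp1 was at -2.84 against -3.88 and Fxyd2 at -1.72 against -2.33, with unadjusted p of 0.0467 and 0.0153 in the limma test of the difference between control and noise. Rab6a, at 1.85 against 3.29, and Prol1, at 1.82 against 2.89, were not called in noise-exposed mice. Of the called genes described, Cldn8 and St13 had the widest gaps between both measurements, with 0.93 against 2.92 for the claudin and -0.01 against 2.32 for the cochaperone. For Phf7 the noise value was -0.24 and for Slc6a13 -0.75. Like Cldn8 and St13, neither was called there. No probe set passed a test of the difference between the control and noise strain effects (0.00% in limma, with 258, or 2.97%, at an unadjusted p under 0.05), and 14 of the 80 had an unadjusted p under 0.05 in that test.

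Genes measured with several probe sets gave a further check of each call. Over all 1165 genes with more than 1 tested probe set, the 1576 pairs of probe sets of the same gene had differences of the same sign in 59.5% and a correlation of 0.215 across pairs, which are not independent. For 22 of the 71 called genes another probe set was tested. None of these 22 other probe sets was called in limma, 17 had the same sign as the called one and 5 the opposite sign. The ratio of their difference to the called one had a median of 0.148, and for 9 of 22 the arrays did not overlap in the same direction, where 29.9% of all probe sets did not overlap in either direction. Of all tested probe sets, 1704 carry a suffix that marks possible matches to related sequences, of which 1.12% were called, against 0.873% of the rest. These 19 called probe sets include those of Arcn1, Atp7a, Gas5, Klk1b22, Phf7, Pla2g12a, Prol1, Pttg1, Spg21 and Usp38. Among the 12 pairs in which both probe sets have the plain suffix, 8 had the same sign and the median was 0.104.

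**Figure D3:**
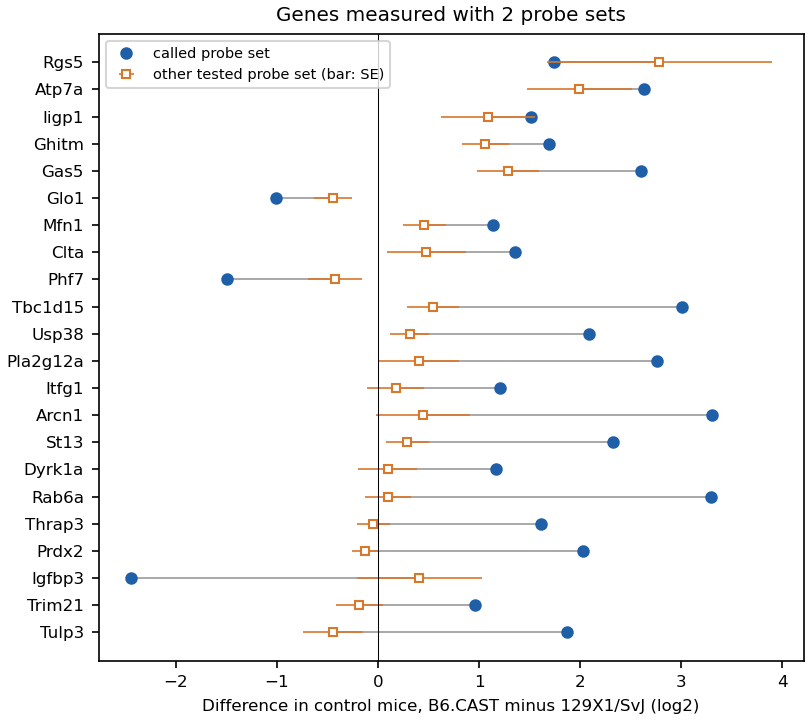
Strain difference in control mice (B6.CAST minus 129X1/SvJ, log2) for the 22 called genes with another tested probe set; filled circles are the called probe sets and open squares with standard errors the others. The squares lie nearer 0 than the circles for every gene except Rgs5, and 5 squares, those of Tulp3, Trim21, Igfbp3, Prdx2 and Thrap3, lie on the other side of 0.

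The genes fell into those whose probe sets moved together and those whose probe sets parted. For 4 genes the other probe set moved by at least 0.5 of the called one. Atp7a had 2.63 and 1.99 ± 0.52, Rgs5 had 1.74 and 2.78 ± 1.11, Iigp1 had 1.51 and 1.09 ± 0.47, and Ghitm, a protein of the inner mitochondrial membrane named after its values were seen, had 1.69 and 1.06 ± 0.24. For Rgs5 the other probe set gave unequal signals of 422 and 92.9 in B6.CAST, against 26.0, 13.1 and 8.8 in 129X1/SvJ. In noise-exposed mice the probe sets of Rgs5 parted, at 1.27 for the called one and -0.11 for the other. The other probe set of Gas5 was at 1.28 ± 0.31 (adjusted p = 0.0972 in limma), with 180 and 158 in B6.CAST and 57.6, 48.1 and 65.5 in 129X1/SvJ. It was thus also without overlap. The other probe set of Glo1, the glyoxalase that detoxifies methylglyoxal, was at -0.45 ± 0.19 beside -1.01 for the called one (named after its values were seen).

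In the second class, Prdx2, an antioxidant peroxiredoxin, had a called probe set with 950 and 766 against 201, 173 and 201 (2.03 ± 0.20). Its other, far brighter probe set gave 6636 and 5964 against 6388, 6589 and 7084 (-0.13 ± 0.13). The first differed without overlap and the second did not, so the probe sets of this gene disagreed. The second probe set of Rab6a was at 0.10 ± 0.23 with 965 and 928 against 831, 712 and 1183, and that of Tbc1d15 at 0.54 ± 0.26. For St13 it was at 0.29 ± 0.21, for Pla2g12a at 0.40 ± 0.40, for Arcn1 at 0.45 ± 0.46 and for Igfbp3 at 0.41 ± 0.62, on the other side of 0. For Usp38 it was at 0.31 ± 0.19, with a mean signal of 407 against 92.5 for the called one. For Phf7 it was at -0.42 ± 0.27 beside -1.49. The letters of the probes were not used here, so their positions relative to sequence variants between the strains were not checked for any gene. For Fbp1, Fxyd2, Bcat2, Pam, Med1, Plbd1, Gdpd3 and Cldn8 a single probe set was tested.

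Marker lists gave an account of cell content. Over all 6506 genes, each by its brightest tested probe set, 2780 (42.7%) were higher in B6.CAST, 36 were called higher and 25 lower, and the median was -0.05. The lists with the highest medians were melanocytes and intermediate cells (0.68), pericytes and smooth muscle (0.62) and macrophages (0.50). The pericyte and smooth muscle median rested on 1 array and was -0.06 without B6.CAST control 1. The lowest were Schwann cells and myelin (-0.45) and brain tissue and choroid plexus (-0.38). With all tested probe sets of a gene averaged, the macrophage median was 0.30 and that of Schwann cells and myelin -0.33. Those of melanocytes, pericytes and brain tissue did not change. Medians of hair cells (0.17, with 5 genes), supporting cells and tectorial membrane (0.17, with 16), marginal cells (0.09, with 4) and spiral ganglion neurons (0.07, with 14) were closer to 0, and none of their members was called. These are descriptions of the lists, and no test was made of them.

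**Figure D4:**
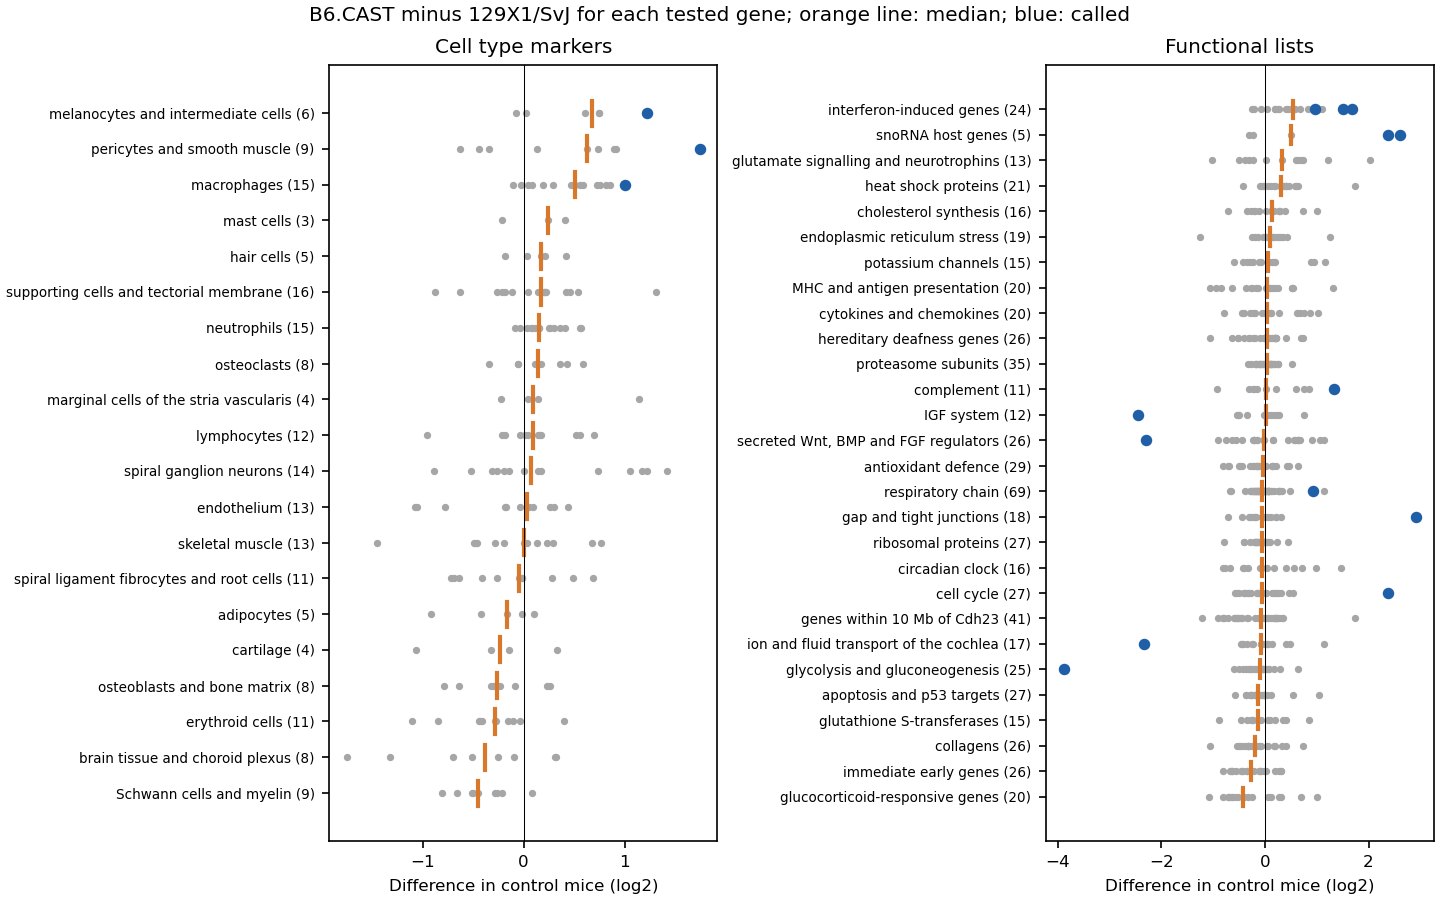
Difference between strains in control mice (B6.CAST minus 129X1/SvJ, log2) for each tested gene of the marker lists (left) and functional lists (right), with the number of genes in brackets, the list median as an orange line and called genes in blue. Interferon-induced genes (median 0.55), markers of melanocytes and intermediate cells (0.68) and macrophage markers (0.50) lie mostly above 0 and Schwann cell markers (-0.45) mostly below.

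Among pigment cell markers 1 gene was called, higher in B6.CAST. Of 6 tested markers of melanocytes and intermediate cells 5 were higher, and 4 of these were without overlap between arrays, against 12.8% of all genes. The called gene was Trpm1 (0.938% of all genes were called). Trpm1, a cation channel of melanocytes, gave 289 and 216 against 105, 83.8 and 95.6 (1.23 ± 0.24, adjusted p = 0.0403). Dct, an enzyme of melanin synthesis and the brightest of the list, gave 13147 and 14138 against 9332, 8015 and 8490 (0.61 ± 0.13, adjusted p = 0.0593), and Kit, the receptor that melanocytes need to survive, 554 and 502 against 325, 311 and 286 (0.75 ± 0.19, adjusted p = 0.135). The summed signal of the list was 14462 and 15232 in B6.CAST and 8786 to 10138 in 129X1/SvJ, nearly all of it from Dct, so the sum restates that gene. It was 14339 and 16470 against 7616 to 9537 in noise-exposed mice, where the median was 0.59. Tyr, the first enzyme of melanin synthesis, was at 0.75 ± 0.39 and Oca2, a melanosome protein, at 0.02 ± 0.59. Markers of marginal cells, the neighbours of intermediate cells in the stria, summed to 12405 to 13587 in B6.CAST and 11223 to 12840 in 129X1/SvJ, so the ranges overlapped. The call of Trpm1 was lost without each control array, 129X1/SvJ noise 2 and either B6.CAST noise array (adjusted p up to 0.363 in limma), and the list median stayed between 0.61 and 0.73 without 1 control array.

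Macrophage markers were mostly higher in control mice of B6.CAST. Of 15 tested, 13 were higher, 7 of them without overlap (12.8% of all genes). Neutrophil markers, which varied widely among arrays, were also higher for 13 of 15, with 0 without overlap. Ctss, the lysosomal protease cathepsin S, was called, as were 0.938% of all genes. Ctss gave 1558 and 1571 against 713, 958 and 700 (1.01 ± 0.20, adjusted p = 0.0469). C1qa, which starts the classical complement cascade, was at 0.85 ± 0.23 and Mpeg1, a pore-forming protein of macrophages, at 0.82 ± 0.27, and neither passed. The summed signal was 8256 and 10517 in B6.CAST and 4378 to 7520 in 129X1/SvJ. In noise-exposed mice the median was 0.08 and the sums overlapped, at 7884 and 9371 against 6770 to 9086. Without B6.CAST control 1 the control median was 0.29 and without 129X1/SvJ control 1 it was 0.25. The call of Ctss was lost without each control array, 129X1/SvJ noise 2 and either B6.CAST noise array (adjusted p up to 0.310 in limma).

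Among pericyte and smooth muscle markers Rgs5, a regulator of G protein signalling that marks pericytes, was called. It gave 477 and 444 against 118, 87.9 and 167 (1.74 ± 0.28, adjusted p = 0.0124). The other members did not move as 1 group, since Abcc9, a potassium channel subunit of pericytes, was at 0.91 ± 0.37 and Notch3, the receptor on mural cells, at -0.45 ± 0.21. The summed signal was 3686 and 2319 in B6.CAST and 2136 to 2228 in 129X1/SvJ, and the list median was -0.06 without B6.CAST control 1. In noise-exposed mice the median was 0.08, while the called probe set of Rgs5 was at 1.27 and its other probe set at -0.11. Rgs5 lost its call without 129X1/SvJ control 2 and either B6.CAST control array (adjusted p 0.0669, 0.179 and 0.135 in limma). In endothelium, 7 of 13 tested markers were higher and 0 passed in limma. Ramp2, a receptor partner for adrenomedullin, gave 336 and 487 against 770, 1097 and 798 (-1.07 ± 0.22, adjusted p = 0.0505), and Vwf, von Willebrand factor, was at -1.06 ± 0.29.

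Of 9 tested markers of Schwann cells and myelin 8 were lower in B6.CAST, 5 without overlap (as were 1044 of all 6506 genes), and none was called in limma. Egr2, the transcription factor of myelination, was at -0.81 ± 0.24, Pmp22, a myelin protein, at -0.50 ± 0.16 and Erbb3, the neuregulin receptor of Schwann cells, at -0.45 ± 0.18. The median was -0.25 without B6.CAST control 1 and -0.15 in noise-exposed mice. Summed signals overlapped, at 28679 and 32248 against 30383 to 33239.

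Blood and marrow markers varied widely among the arrays of each strain. Neutrophil markers summed to 21375 and 6739 on the B6.CAST control arrays and to 4142, 13111 and 22661 on those of 129X1/SvJ. Erythroid markers summed to 25636 and 10368 against 13509, 19080 and 33743. The ranges overlapped in control mice, with medians of 0.15 and -0.28. The neutrophil median was -0.33 without 129X1/SvJ control 1, -0.62 without B6.CAST control 1 and 1.04 without B6.CAST control 2. The erythroid median also changed sign, to 0.23 without B6.CAST control 2 and to 0.09 without 129X1/SvJ control 3, and was -1.02 without B6.CAST control 1. In noise-exposed mice the medians were -2.43 and -1.35. No called gene described above is on either list. Skeletal muscle markers summed to 1260 and 3601 against 2081 to 2708, also with overlap.

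Interferon-induced genes had the most called genes by count of the functional lists, 3 of 24, while snoRNA host genes had 2 of 5. Interferons are released on infection and turn on antiviral genes through STAT and IRF transcription factors, and a low tonic level of this response exists in healthy tissue. Of 24 tested genes 21 (87.5%) were higher in B6.CAST, against 42.7% of all genes, and 15 were higher without overlap, against 12.8% of all genes. The list had 3 called genes, where 0.938% of all genes were called, and its median was 0.55 against -0.05. Rsad2, or viperin, which inhibits viral replication, gave 234 and 190 against 56.7, 53.1 and 47.7 (1.69 ± 0.32, adjusted p = 0.0385). Isg15, a ubiquitin-like modifier, gave 643 and 704 against 372, 326 and 308 (0.96 ± 0.18, adjusted p = 0.0387). Iigp1, a GTPase that attacks vacuoles of intracellular parasites, gave 186 and 204 against 59.8, 35.6 and 71.1 (1.51 ± 0.31, adjusted p = 0.0472).

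Of the other 21 genes of the list, 18 were above 0 without passing. Ifit3, an antiviral partner of Ifit1, gave 982 and 920 against 469, 541 and 401 (1.01 ± 0.46), Gbp3, a guanylate-binding protein, 978 and 968 against 514, 530 and 383 (1.04 ± 0.27), and Ifi27, one of the brightest of the list, 6440 and 7569 against 4362, 4687 and 4936 (0.56 ± 0.12, adjusted p = 0.0569). These 3 were named after their values were seen, and none passed. Genes at or below 0 were Irf1 (-0.07 ± 0.26), Ifit2 (-0.20 ± 0.39) and Eif2ak2 (-0.26 ± 0.37), also named after their values were seen. In noise-exposed mice 23 of 24 were higher and the median was 0.77. The control median was 0.46 to 0.62 without 1 control array. Single calls were less stable. Those of Isg15 and Iigp1 were lost in 8 of 10 fits without 1 array and that of Rsad2 in the 5 without a control array. The arrays that kept the call when left out were noise arrays of 129X1/SvJ, numbers 1 and 3 for Isg15 and 1 and 2 for Iigp1. The adjusted p in limma reached 0.270 for Isg15, 0.323 for Iigp1 and 0.285 for Rsad2.

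**Figure D5:**
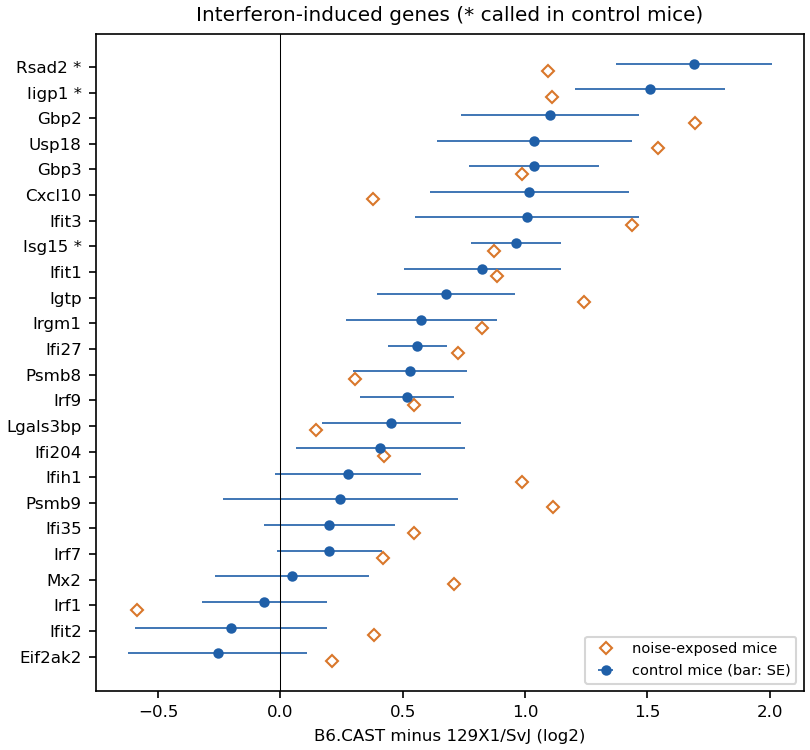
Strain difference (B6.CAST minus 129X1/SvJ, log2) of the 24 tested interferon-induced genes in control mice (filled circles with standard errors) and in noise-exposed mice (open diamonds); an asterisk marks the 3 genes called in control mice. In control mice 21 circles and in noise-exposed mice 23 diamonds lie above 0.

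Interferon response elements are the known switch of this group, and the promoters of 3 of its genes are shown as examples. Isg15 and Rsad2 were called and Ifit3 was not, and the called Iigp1 had no promoter in the table used. The letters are the 250 bases before the annotated start, from RefSeq on GRCm38.p6, written 5′ to 3′ in the direction of the gene. Capitals mark matches, on either strand, to GAAA followed after any 2 bases by GAAA again, the core of the interferon-stimulated response element.
Isg15, chr4:156200819-156201068, minus strand: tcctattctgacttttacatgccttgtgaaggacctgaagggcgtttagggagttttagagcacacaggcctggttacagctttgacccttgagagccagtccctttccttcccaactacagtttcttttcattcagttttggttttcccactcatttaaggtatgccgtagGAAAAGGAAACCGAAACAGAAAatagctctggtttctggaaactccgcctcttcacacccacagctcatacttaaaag
Rsad2, chr12:26456453-26456702, minus strand: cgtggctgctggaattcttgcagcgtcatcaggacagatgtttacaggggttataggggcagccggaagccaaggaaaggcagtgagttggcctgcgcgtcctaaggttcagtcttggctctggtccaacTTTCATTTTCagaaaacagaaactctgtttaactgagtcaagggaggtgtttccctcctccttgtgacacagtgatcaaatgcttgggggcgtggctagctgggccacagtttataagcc
Ifit3, chr19:34583279-34583528, plus strand: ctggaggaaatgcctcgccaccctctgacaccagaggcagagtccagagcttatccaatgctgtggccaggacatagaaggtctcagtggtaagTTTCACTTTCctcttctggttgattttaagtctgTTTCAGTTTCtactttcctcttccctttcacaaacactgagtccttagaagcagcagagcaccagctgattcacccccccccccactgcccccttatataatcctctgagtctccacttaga
In Isg15 the 3 matches overlap and begin at -78, -72 and -66 from the start, on the strand of the gene. Rsad2 has 1 match at -120 and Ifit3 has 2, at -156 and -122, all on the opposite strand. In the window of 300 bases around the start (250 before and 50 after), the motif was present in 11 of 19 interferon-induced genes with a promoter in the table (57.9%), in 5 of 39 called genes higher in B6.CAST (12.8%) and in 1079 of 27025 genes (3.99%). Genes of this list are known targets of the element, so the share describes the list and not the strain difference. Genes without the motif in the window included Irf9 (0.52 ± 0.19) and Psmb8 (0.53 ± 0.23), which were also higher, and Eif2ak2 had it at -0.26. A match is a description of letters and does not show binding.

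Antigen presentation did not follow the interferon list as a whole. Of 20 tested genes 11 were higher, 0 were called in limma and the median was 0.04. The class II genes H2-Ab1 (-1.07 ± 0.29) and H2-Aa (-0.95 ± 0.28), which present extracellular peptides, were lower without passing, with 205 and 102 against 248, 404 and 348 for H2-Ab1. In noise-exposed mice they were at -1.55 and -1.63. H2-Q4, a class I gene, was at 1.32 ± 0.39 in control mice and -0.22 in noise-exposed mice, and its probe set may match related genes.

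Stress and hormone response lists held no called genes in limma. Of 21 heat shock genes 16 were higher (median 0.31, and 0.01 in noise-exposed mice), led by Hsf2, a heat shock transcription factor, at 1.73 ± 0.51. Cryab, a small heat shock protein, was at 0.59 ± 0.20 and Hspa1b, an inducible Hsp70, at 0.65 ± 0.23. Of 26 immediate early genes 20 were lower (median -0.27), with Egr2 at -0.81 ± 0.24 and Cebpd, a transcription factor of the acute phase, at -0.64 ± 0.22. Of 20 glucocorticoid-responsive genes 14 were lower (median -0.43, and -0.35 in noise-exposed mice). Hsd11b1, the enzyme that regenerates active glucocorticoid in tissues, went the other way, with 1243 and 821 against 443, 529 and 532 (1.01 ± 0.21, adjusted p = 0.0505), and 1.49 in noise-exposed mice. The clock gene Nr1d2, a nuclear receptor that represses transcription, gave 1522 and 1188 against 714, 289 and 514 (1.47 ± 0.33, adjusted p = 0.0723), and the median of 16 clock genes was -0.07.

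Lists tied to noise defence and deafness held no called gene by their brightest probe set. Of 29 antioxidant genes 20 were lower (median -0.04), of 15 glutathione S-transferases 9 (median -0.14) and of 26 hereditary deafness genes 13 (median 0.04). Gstz1, a glutathione transferase of tyrosine breakdown, was the nearest to a call, with 713 and 593 against 1237, 1227 and 1239 (-0.88 ± 0.19, adjusted p = 0.0614). Its arrays were tightly grouped in 129X1/SvJ. Tectb and Tecta, the tectorins of the membrane above the hair cells, were at -0.88 ± 0.36 and -0.63 ± 0.33, and Ocm at 0.42 ± 0.21. Proteasome subunits (35 genes, median 0.04) and ribosomal proteins (27 genes, median -0.06) lay near 0, and 19 of 26 collagens were lower (median -0.19).

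Of the genes with known alleles in these strains that were tested, none passed. Nnt, a proton-driven mitochondrial enzyme that makes NADPH and is partly deleted in C57BL/6J mice, was at -0.81 ± 0.24 (adjusted p = 0.215 in limma). Its arrays did not overlap, with 425 and 575 in B6.CAST and 955, 1066 and 680 in 129X1/SvJ, nor did those of noise-exposed mice (-0.58), and the position of its probes relative to the deletion was not examined. Tyr and Oca2, pigment genes with alleles in 129 lines, are given above. Casp4 was below the filter on dim probe sets, and Cdh23 and Disc1 had no probe set annotated to them alone, so they were not measured here. In the 10 Mb on either side of Cdh23, where B6.CAST mice may carry DNA of CAST origin, 41 genes were tested, 0 were called in limma, 25 were lower and the median was -0.07. The nearest to a call was Man1a, a Golgi mannosidase, at -1.22 ± 0.28 (adjusted p = 0.0823), named after its values were seen, and Hsf2 lies there too. The extent of the CAST segment is not given in the sources used here.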

How the data were processed

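The authors deposited linear signal intensities per probe set, which had been scaled array by array: the mean without the lowest and highest 2% was 500.27 to 500.30 on the control and noise arrays. Which software made them is not given in the sources used here. Detection flags were not used. Of 12488 probe sets, 66 control probe sets were set aside. Of the rest 10833 have 1 gene in the platform annotation, 396 have several and 1193 none used here, and 10817 of the first were found in the RefSeq table of GRCm38.p6, from which symbols were updated.

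From the deposited intensities, log2(intensity + 16) was computed and quantile normalized, and the dimmest 30% of probe sets by mean were removed, leaving 8695. A model with 4 group means was fitted to all 10 arrays in limma 3.58.1 under R 4.3.3, with a variance trend (6 residual degrees of freedom), with Benjamini-Hochberg adjustment over all probe sets and a threshold of 0.05. The fit was tested on simulated data. Each array is a pool of mice, so p-values measure the spread between pools, and the number of arrays limits the precision. The brightest tested probe set stood for each gene in lists. The comparison, lists and naming rule were chosen with earlier results of these data known. The rule took the 15 largest called rises and falls, genes with several called probe sets, called list members, up to 3 members per list with the smallest p, and 6 genes with strain alleles. Probe sets with several genes or none were left out of it, and some of their called differences were larger than some of those taken. Alternatives covered scaling, pseudocount, filter, variance model, array weights, threshold, fits of fewer arrays, leaving out each array and the replicate number as a block.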

Additional observations from a re-analysis of the deposited data

How the results depend on the processing

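Of the alternatives run, the count of 80 control calls stayed within 1.5 times under scaling as deposited, median centring, other pseudocounts, other filters, no variance trend and a robust variance fit (55 to 90). It was 139 with array weights, 34 at a threshold of 0.01, 131 at 0.1, 151 with the control arrays alone and 36 when both arrays with a high Gapdh ratio were dropped. Without 1 array it ranged from 23 to 132. The count of 126 noise calls was 192 with array weights, 38 and 201 at thresholds of 0.01 and 0.1, 55 with the noise arrays alone, 26 when those 2 arrays were dropped and 26 to 122 without 1 array. The causes were not tested. The test of the difference between strain effects gave 0 calls in limma in each setting run, and the median over all probe sets lay between -0.08 and -0.03. With no filter on dim probe sets 51 of the 80 control calls were also called. With the replicate number as a block, 34 control and 44 noise probe sets were called. Deviations from the group means correlated at -0.39 to 0.14 over 13 pairs of same-numbered arrays. Over 24 pairs of other numbers they correlated at -0.35 to 0.35. In the B6.CAST groups of 2 arrays the deviations mirror each other, so many of these values are the same number with the sign turned. They therefore cannot decide whether the numbers pair the arrays. Of 39 named called genes, 26 stayed called with the block and 22 with those 2 arrays dropped. Fewer arrays alone leave fewer degrees of freedom, and the dimmest called genes rest on low signals in 1 strain.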

Other observations

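A further 32 called genes lay outside the naming rule, and those given here were named after their values were seen. Their calls were not followed gene by gene in the fits without 1 array. Without 129X1/SvJ control 2, 33 probe sets were called in all, and 23 of these were of the 39 genes described above. Most of the 32 further calls were thus lost in that fit. Abcd3, a transporter of the peroxisome membrane, gave 3272 and 3647 against 1310, 1649 and 962 (1.42 ± 0.22; SE, n = 2 and 3 arrays), and Pdhb, a subunit of pyruvate dehydrogenase, 3397 and 3042 against 1794, 1620 and 1259 (1.03 ± 0.19). Both kept that size in noise-exposed mice, at 1.64 and 1.08. Ang, the secreted ribonuclease angiogenin, was higher by 1.72 ± 0.24 with a probe set that may match its close relatives, and Dyrk1a, a kinase, by 1.17 ± 0.15. A second, dimmer probe set of Dyrk1a was at 0.10 ± 0.29. Agtrap, which binds the angiotensin receptor, was higher by 1.11 ± 0.21 in control and 1.10 in noise-exposed mice. Trim21, an antibody receptor of the cytosol, was higher by 0.96 ± 0.19, but its other probe set was at -0.19 ± 0.23.

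Among the lower genes, Alad, an enzyme of haem synthesis, gave 1317 and 1478 against 2490, 2825 and 2849 (-0.96 ± 0.18), and Glo1 gave 2102 and 1935 against 3910, 3962 and 4186. Stmn1, which destabilizes microtubules, was at -0.85 ± 0.17. Gpc3, a heparan sulphate proteoglycan of the cell surface, was at -1.16 ± 0.21, and Thrsp, a protein of fat synthesis, at -1.34 ± 0.21. Rlbp1, a carrier of retinaldehyde, gave 403 and 400 against 735, 910 and 733 (-0.92 ± 0.18) in control mice and a difference of -0.24 in noise-exposed mice. Rlbp1, Gpc3 and Itih2, a carrier of hyaluronan (-1.03 ± 0.21), were highest on the second 129X1/SvJ control array. Their differences in the fit without that array are not given here.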
